A study of Mus musculus with 34 samples.

Results

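The 40 genes described here are genes of cell division: 26 are cyclins and their kinase, act in mitosis or mark dividing cells, 11 copy DNA or supply its building blocks, and 3 are transcription factors of the cell cycle. They were chosen by name, with earlier results of these data known. Their Ensembl identifiers, without the version suffix, were looked up in both expression tables. All 40 were found among the 32098 genes of each table, and all 40 passed the filter on low values in both. The RNA came from perigonadal fat, the visceral depot around the epididymis, and from its stromal vascular fraction (SVF). The SVF is the pellet of immune, progenitor, endothelial and mesothelial cells left after collagenase digestion, when adipocytes float away. All animals were male C57BL/6J mice that entered the study at 6 weeks of age and were fasted before collection, with no transgene or drug. The control groups ate a control diet (CHOW, D12450B or D12450K, with no record of which library received which) and the other groups ate a high fat diet (HFD, D12492, 60% of calories from fat). After 8 weeks on diet, at 14 weeks of age, there were 4 CHOW and 6 HFD libraries. After 20 weeks, at 26 weeks of age, there were 5 CHOW and 6 HFD libraries. After 34 weeks, at 40 weeks of age, there were 7 CHOW and 6 HFD libraries. Nothing in the labels says whether animals were pooled or whether each library is 1 animal, so p-values measure the spread between these libraries.

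A dividing cell first licenses its origins with the Mcm helicase, then copies its DNA with the Pcna clamp on nucleotides made by ribonucleotide reductase, thymidylate synthase and thymidine kinase. It enters mitosis when cyclins A and B activate Cdk1, and it separates its chromosomes under the control of the Aurora and Polo kinases, the Bub checkpoint proteins and spindle motors. Resting cells shut most of these genes off, so their RNA is widely used as a measure of proliferation, and in obese visceral fat both macrophages and adipocyte progenitors are known to divide. Testicular germ cells divide too, by mitosis and meiosis, and carry RNA of many of the same genes. Because the depot lies against the testis and epididymis, the protamines Prm1 and Prm2 and the transition protein Tnp1, which package sperm chromatin, were read in every library.

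Many cell division genes share short promoter elements, and these are shown because their shares differed between the mitotic and the replication members. The cell cycle homology region (CHR, TTTGAA) is the element at which late cell cycle genes are repressed in resting cells, CCAAT boxes bind NF-Y, and TTTNNCGC is a form of the E2F site. RefSeq promoter windows (GRCm38.p6, 250 bases before to 50 bases after the start) were available for 33 of the 40 members, and Mcm7 had 2. The members not matched were Foxm1, Tpx2, Kif20a, Ccne2, Mcm4, Ccna2 and Aurkb. In the lines below, which run 5′ to 3′ on the gene's strand from 250 bases before to 20 bases after the start, capitals mark each of the 3 elements on either strand. Ccnb2 and Cdk1 are shown as mitotic genes with both CHR and CCAAT elements, Mki67 as the common proliferation antigen, and Mcm6 as a replication gene. The windows are chr9:70421535-70421804 (minus strand) for Ccnb2, chr10:69352893-69353162 (minus strand) for Cdk1, chr7:135716360-135716629 (minus strand) for Mki67 and chr1:128359686-128359955 (minus strand) for Mcm6.
Ccnb2: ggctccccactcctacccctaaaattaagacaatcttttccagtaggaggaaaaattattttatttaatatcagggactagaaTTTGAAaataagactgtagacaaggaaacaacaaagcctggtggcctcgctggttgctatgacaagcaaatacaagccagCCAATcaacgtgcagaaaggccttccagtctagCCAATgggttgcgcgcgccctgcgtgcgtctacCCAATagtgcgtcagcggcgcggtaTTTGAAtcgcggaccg
Cdk1: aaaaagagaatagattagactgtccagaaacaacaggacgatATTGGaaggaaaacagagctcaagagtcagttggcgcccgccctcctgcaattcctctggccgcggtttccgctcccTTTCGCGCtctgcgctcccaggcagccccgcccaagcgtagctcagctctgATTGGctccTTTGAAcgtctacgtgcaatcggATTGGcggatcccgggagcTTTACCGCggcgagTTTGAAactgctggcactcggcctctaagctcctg
Mki67: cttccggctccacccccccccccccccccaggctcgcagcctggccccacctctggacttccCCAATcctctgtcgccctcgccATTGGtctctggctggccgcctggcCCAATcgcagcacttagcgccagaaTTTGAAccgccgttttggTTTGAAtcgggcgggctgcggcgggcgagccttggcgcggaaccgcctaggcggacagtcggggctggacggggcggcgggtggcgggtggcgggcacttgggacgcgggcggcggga
Mcm6: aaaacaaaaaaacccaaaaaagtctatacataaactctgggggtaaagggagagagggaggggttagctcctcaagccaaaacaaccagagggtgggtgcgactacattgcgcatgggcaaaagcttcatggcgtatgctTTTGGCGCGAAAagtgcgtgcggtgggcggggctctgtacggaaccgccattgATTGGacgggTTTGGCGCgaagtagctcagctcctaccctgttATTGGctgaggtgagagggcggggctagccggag

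The Ccnb2 window held 3 CCAAT boxes, at 87, 54 and 21 bases before the start and so 33 bases apart, with 2 CHR elements. The Cdk1 window held all 3 kinds of element, 2 CHR, 3 CCAAT and 2 E2F. The Mki67 window held 2 CHR and 3 CCAAT. The Mcm6 window held 0 CHR, 2 CCAAT and 3 E2F matches, of which 2 overlap on opposite strands. Both strands were searched throughout, and none of the 3 motifs is contained in another.

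Over all mitotic and cyclin members, 14 of 21 windows held a CHR (66.7%) and 13 held a CHR together with a CCAAT box (61.9%). Of the 11 windows of replication members 1 held a CHR (9.09%) and 5 held the E2F form (45.5%), against 2 of 21 (9.52%) among the mitotic and cyclin members. CCAAT was in 16 of 21 and 9 of 11 windows (76.2% and 81.8%). For comparison, 17.9% of all 32851 RefSeq windows of this length held a CHR, 37.4% a CCAAT box, 5.17% the E2F form, and 6.95% a CHR with a CCAAT box. The windows of the 10 matched members that passed the test at 20 weeks and those of the others held a CHR in similar shares, 4 of 10 (40%) and 11 of 24 (45.8%). These are matches of letters, not measured binding.

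Germ cell RNA stood out in a few libraries, and results that rest on them are given with and without them. The sum of Prm1, Prm2 and Tnp1 exceeded 1000 TPM (the share of a library's transcripts that a gene takes, corrected for length and scaled to a fixed total) in 3 of 6 HFD libraries at 20 weeks (replicate 3 at 1783, replicate 4 at 1974 and replicate 5 at 8747 TPM) and in 2 of 6 HFD libraries at 34 weeks (replicate 1 at 3562 and replicate 2 at 3921 TPM). It exceeded 1000 TPM in none of the 16 CHOW libraries and in none of the 6 HFD libraries of 8 weeks, where the highest was 811 TPM. At 20 weeks the 5 CHOW libraries lay at 0 to 141 TPM and the 3 other HFD libraries at 3.89 to 164 TPM. A separate list of 12 early and meiotic germ cell genes summed to 30.3, 84.5 and 265 TPM in the 3 germ-cell-rich HFD libraries of 20 weeks, to 93.0 and 99.3 TPM in those of 34 weeks, and to at most 18.4 TPM elsewhere. The macrophage, progenitor, endothelial and mesothelial markers that define the SVF were above 0 in all 34 libraries. Each library had 13200 to 17213 genes at or above 1 TPM. Read depth cannot be recovered from TPM. Single libraries also set the ends of the members' ranges: HFD 8 week replicate 3, with 12.1% of its RNA from seminal vesicle genes, was lowest of its group for 37 members, and CHOW 34 week replicate 6, with the highest adipocyte RNA (25571 TPM), was lowest for 36.

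Levels differed widely between members. Averaged over the 6 group means, Pcna, the sliding clamp that is also used in DNA repair, was highest at 239 TPM (88.2 to 313 TPM over the 34 libraries). Only protein coding and long non-coding transcripts were quantified. Reads from any processed copies of Pcna, Ccnb1, Ccnb2 or Tyms outside that set could therefore not be assigned to those copies. The centromeric histone Cenpa followed at 44.5 TPM, then Mcm6 at 26.8, the ribonucleotide reductase subunit Rrm1 at 23.1, Mcm3 at 21.4, Mcm7 at 20.3 and Mki67 at 19.8 TPM. From Mcm6 to Mki67, the ranges over libraries overlapped. At the low end were Bub1 at 2.13, Mybl2 at 2.09, the kinetochore protein Cenpf at 2.07, the kinesin Kif15 at 1.87 and cyclin Ccne2 at 1.17 TPM. The log2(TPM + 1) scale used for every fold change understates the change of such low genes.

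**Figure D1:**
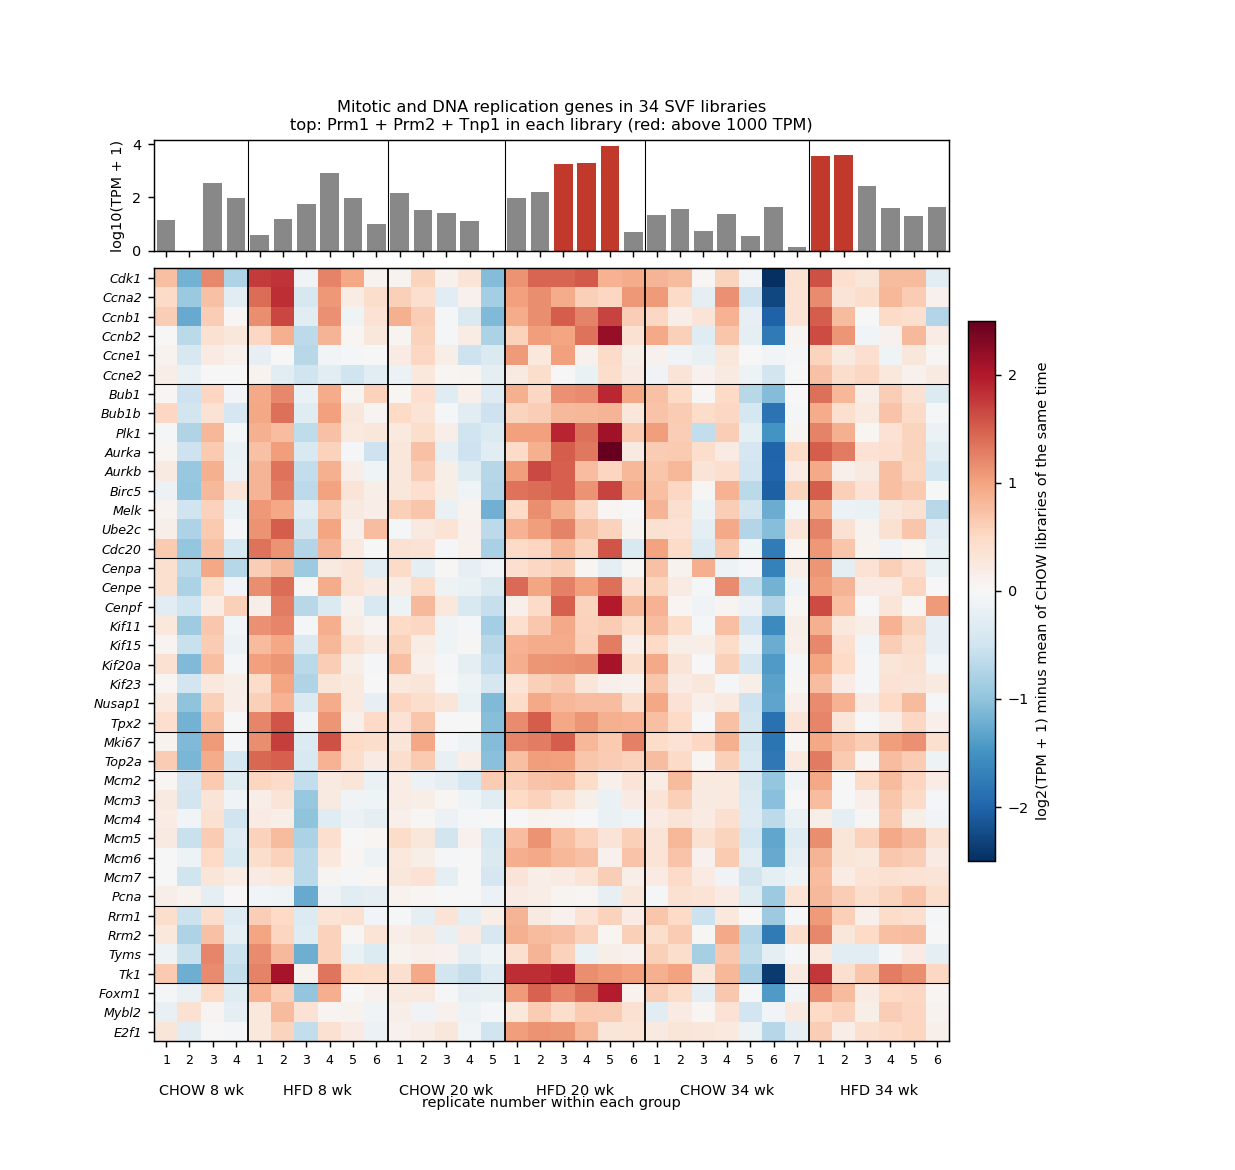
Heat map of the 40 members (rows, by role) in the 34 libraries (columns, by group), as log2(TPM + 1) minus the mean of the CHOW libraries of the same time. The bar on top gives the summed Prm1, Prm2 and Tnp1 level as log10(TPM + 1), with the 5 libraries above 1000 TPM in red. HFD libraries of 20 weeks were above the CHOW mean for most members, and single CHOW libraries of each time were low for most of them.

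After 20 weeks of HFD, cell division genes were higher than on CHOW, but most of the calls were lost without the libraries rich in germ cell RNA. Of the 40 members, 14 rose and 0 fell at an adjusted p under 0.05 (limma), and 39 of 40 had a positive log2 fold change. Over all 16808 genes tested in this comparison 14.3% were called in either direction and 9.32% were called higher on HFD. The members' share of 35% was above that background. It describes the list and is no independent test, since the members were chosen with earlier results of these data known. Without the 3 germ-cell-rich HFD libraries 1 of 40 was called, below the 5.94% of all genes called in that fit. That fit kept only 3 of the 6 HFD libraries. The parts of the smaller group and of germ cell RNA in the lost calls cannot be told apart. With the germ cell sum or an adipocyte score as a covariate 0 of 40 were called, against 5.24% and 5.21% of all genes. The members' median log2 fold change was 0.73 in the fit of all libraries, against 0.08 over all genes tested. It was 0.66 without the germ-cell-rich libraries, 0.52 with the germ cell covariate and 0.46 with the adipocyte covariate. All 6 HFD libraries lay above all 5 CHOW libraries for 8 members (20%), namely Cdk1, Bub1, Plk1, Birc5, Tpx2, Tk1, Mybl2 and E2f1, where 5.5% of all genes did so. In a bulk pellet, fewer cells of a type and less RNA per cell cannot be told apart. Leaving out 1 library at a time moved the count of 14 in both directions. It was 4 when CHOW replicate 5 was dropped, and 6 when CHOW replicate 3 or replicate 4 was. Among the HFD libraries, dropping replicate 4 gave 7, replicate 2 or 3 gave 8, replicate 5 gave 9 and replicate 1 gave 11. The count stayed at 14 when CHOW replicate 1 was dropped. It rose to 17 on dropping either CHOW replicate 2 or HFD replicate 6. The share of all genes called moved in parallel. It was 7.5% to 13.7% in the fits with a lower count, and 15.1% and 18.5% in those with 17. CHOW replicate 5 was lowest of its group for 28 members and had the highest red cell RNA of its group (130027 TPM), and without it 7.54% of all genes were called. Bub1, Plk1, Birc5 and Foxm1 were called in each of the 11 fits that left out 1 library of this comparison, but not without all 3 germ-cell-rich libraries or with either covariate.

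Among the cyclins and their kinase, 2 of 6 rose (median log2 fold change 0.98). This count and those of the other roles below stand beside 9.32% of all genes called higher on HFD and 14.3% called in either direction. Cdk1, the kinase that drives entry into mitosis (chr10:69335146-69352938), was at 7.74, 11.1, 7.95, 9.34 and 2.91 TPM in the CHOW libraries and at 14.1 to 22.9 TPM (median 19.3) on HFD. The groups did not overlap, and the difference on the log2 scale was 1.23 ± 0.41 (SE, adjusted p = 0.0499, just inside the threshold). Ccnb2, a B-type cyclin (chr9:70407692-70421547), was at 7.92, 11.7, 7.40, 8.68 and 3.91 TPM on CHOW and at 10.1 to 37.5 TPM (median 16.2) on HFD. It also passed the test, with the highest CHOW library above the lowest HFD library. Ccnb1, the other B-type cyclin, missed the threshold narrowly, with means of 4.40 ± 2.73 (SD, n = 5) on CHOW and 10.4 ± 3.01 TPM (SD, n = 6) on HFD. The E-type cyclins of S phase entry lay closer together, Ccne1 at means of 3.05 and 4.82 TPM and Ccne2 at 0.998 and 1.30 TPM on CHOW and HFD, and neither passed.

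The mitotic kinases, checkpoint proteins and ubiquitin ligase parts had a median log2 fold change of 1.06, and 5 of 9 rose. Plk1, the Polo kinase of centrosome maturation and cytokinesis (chr7:122159439-122169873), was at 2.75, 3.31, 2.56, 1.25 and 1.53 TPM on CHOW and at 4.03 to 12.7 TPM (median 6.40) on HFD (log2 fold change 1.35 ± 0.31 SE, adjusted p = 0.00769). Birc5 or survivin, the chromosomal passenger protein (chr11:117849251-117855743), was at 9.71, 10.7, 8.79, 7.12 and 4.31 TPM on CHOW and at 15.5 to 27.4 TPM (median 21.9) on HFD (1.33 ± 0.32, adjusted p = 0.009). Both genes separated the diets in every library. Bub1, a kinase of the spindle checkpoint (chr2:127801122-127831865), did so too at a lower level, with 1.05, 1.65, 0.61, 1.17 and 0.58 TPM on CHOW and 1.83 to 6.25 TPM (median 3.12) on HFD (1.10 ± 0.27, adjusted p = 0.0111).

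Aurka, the Aurora kinase of the spindle poles (chr2:172356190-172370535), was called but spread widely on HFD. Its CHOW libraries were at 4.11, 5.93, 2.63, 1.94 and 2.42 TPM and its HFD libraries at 3.89 to 22.4 TPM (median 8.08), for a difference on the log2 scale of 1.15 ± 0.37 (SE, adjusted p = 0.041). The groups overlapped, and the highest value was in replicate 5, the library with the most germ cell RNA. Aurkb, the Aurora kinase that partners Birc5, rose with means of 2.88 ± 1.32 (SD, n = 5) and 7.01 ± 2.48 TPM (SD, n = 6) on CHOW and HFD. Bub1b, Melk, Ube2c and Cdc20 were higher in the mean on HFD but did not pass. Ube2c and Cdc20, which act with the anaphase-promoting complex, were at means of 11.5 and 5.13 TPM on CHOW and 20.3 and 8.64 TPM on HFD.

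Of the centromere, kinesin and spindle genes 3 of 9 rose (median 0.80). Kif20a, a kinesin of cytokinesis, was at 3.75, 2.10, 1.75, 1.42 and 0.84 TPM on CHOW and at 2.83 to 10.8 TPM (median 5.14) on HFD, for a difference on the log2 scale of 1.13 ± 0.36 (SE, adjusted p = 0.0392). The highest CHOW library lay above the lowest HFD library. Cenpe, the kinetochore motor, rose with means of 1.31 ± 0.558 and 3.89 ± 1.15 TPM, and Tpx2, which activates Aurka on the spindle, with means of 3.41 ± 1.72 and 7.81 ± 1.59 TPM (SD, n = 5 CHOW and 6 HFD). Cenpa, Cenpf, Kif11, Kif15, Kif23 and Nusap1 did not pass. Cenpa differed least of these, with 32.0 ± 7.22 TPM on CHOW and 37.9 ± 8.48 TPM on HFD (SD).

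Mki67, the antigen behind Ki-67 staining (chr7:135689784-135716361), was at 21.4, 34.6, 16.5, 15.6 and 7.63 TPM on CHOW and at 27.8 to 51.3 TPM (median 42.1) on HFD. Only CHOW replicate 2 reached into the HFD range, and Mki67 still missed the threshold (adjusted p = 0.0551, given because it lies just outside it). Top2a, the topoisomerase of chromosome condensation, was at means of 9.04 ± 3.91 and 15.2 ± 2.28 TPM (SD) and did not pass either.

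The helicase and clamp genes had a median log2 fold change of 0.30, with 1 of 7 called, a share near the 14.3% of all genes called. That gene was Mcm6 (chr1:128331590-128359664), at 21.4, 19.6, 16.9, 17.5 and 13.4 TPM on CHOW and at 18.9 to 35.0 TPM (median 30.9) on HFD. A single HFD library, replicate 5 at 18.9 TPM, lay inside the CHOW range. Its helicase partner Mcm4 had means of 14.4 ± 1.04 on CHOW and 14.1 ± 1.05 TPM on HFD (SD), and Pcna 238 ± 15.1 and 256 ± 29.0 TPM, and neither passed. So subunits of 1 hexamer spanned log2 fold changes from -0.03 (Mcm4) to 0.70 (Mcm6), and no test was made between them.

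The nucleotide supply genes had 1 of 4 called (median 0.50). Tk1, the thymidine kinase of the salvage pathway (chr11:117815526-117826092), had the largest log2 fold change of all 40 members, 1.48 ± 0.41 (SE, adjusted p = 0.0211). It was at 6.84, 10.4, 3.31, 2.99 and 3.73 TPM on CHOW and at 11.1 to 21.5 TPM (median 16.2) on HFD, with no overlap. Tk1 and Birc5 lie 23159 bases apart on chromosome 11, the only pair of members so close. Rrm1, Rrm2 and Tyms did not pass, with means of 18.5, 6.503 and 10.8 TPM on CHOW and 24.6, 10.4 and 14.1 TPM on HFD.

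Of the transcription factors 2 of 3 rose. Foxm1, the activator of late cell cycle genes (chr6:128362967-128376146), was at 5.64, 5.75, 4.53, 3.93 and 4.01 TPM on CHOW and at 5.05 to 21.3 TPM (median 13.3) on HFD, for a difference on the log2 scale of 1.20 ± 0.31 (SE, adjusted p = 0.0151). All HFD libraries but replicate 6, at 5.05 TPM, were above the CHOW range. E2f1, the activator of S phase genes, rose with means of 7.25 ± 1.61 and 13.4 ± 3.54 TPM (SD, n = 5 and 6) and no overlap. Mybl2, which acts with Foxm1, was at 1.44 ± 0.210 and 2.46 ± 0.386 TPM, also with no overlap, but missed the threshold.

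**Figure D2:**
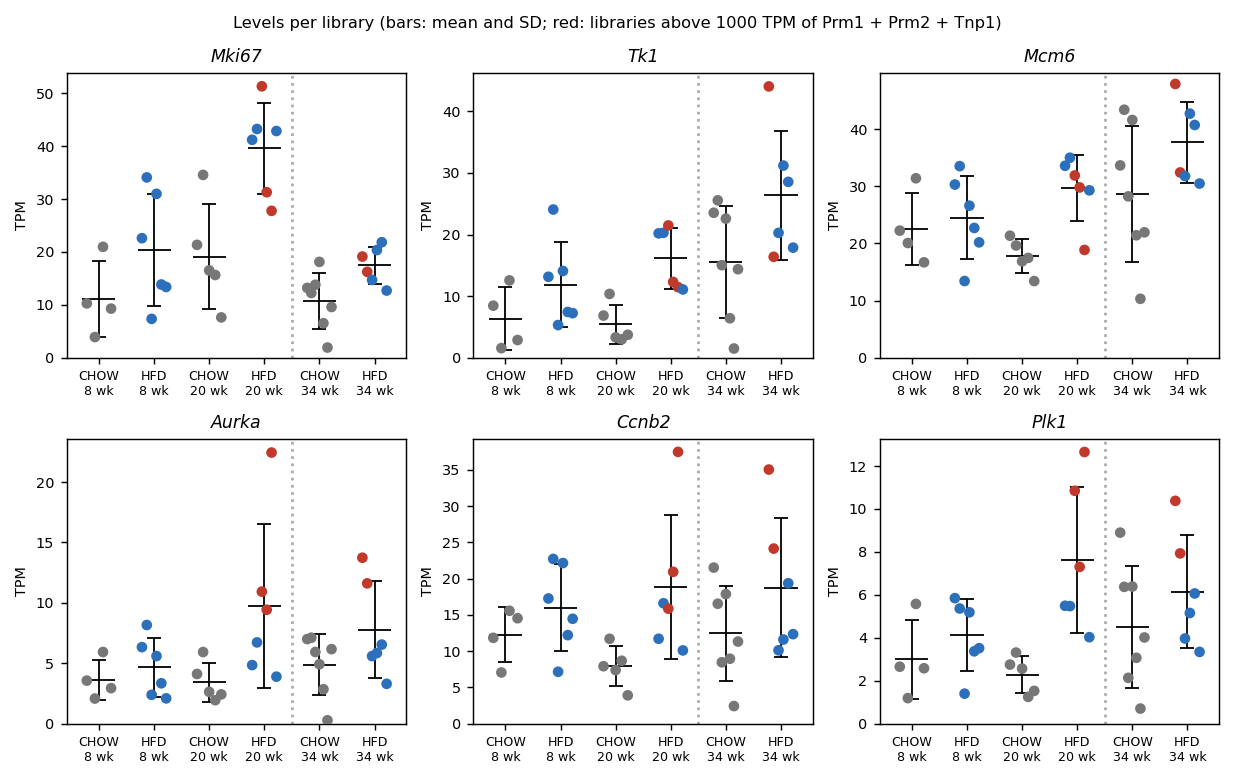
TPM of Mki67, Tk1, Mcm6, Aurka, Ccnb2 and Plk1 in each library (points) by group, with the mean and SD. The 5 libraries above 1000 TPM of summed Prm1, Prm2 and Tnp1 are red, and the dotted line sets off the 34 week table, which was made apart. At 20 weeks the highest HFD value of Aurka (22.4 TPM), Ccnb2 (37.5 TPM) and Plk1 (12.7 TPM) is a red point, whereas the red point at 18.9 TPM is the lowest HFD value of Mcm6.

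The 3 germ-cell-rich HFD libraries did not carry the members alike. In replicate 5 Aurka stood at 4.63 times the median of the 3 other HFD libraries, Cenpf at 3.97 times, Ccnb2 at 3.20 times, Kif20a at 2.54 times, Bub1 at 2.38 times and Plk1 and Cdc20 at 2.31 times. In the same library Mki67 was at 0.648, Tk1 at 0.567 and Mcm6 at 0.561 times that median. Replicate 5 was thus highest of the 6 HFD libraries for 14 members and lowest for 13. In replicates 3 and 4, Aurka was at 2.25 and 1.94 times the same median and Mki67 at 1.20 and 0.730 times. Tk1 was at 1.06 and 0.609 times and Mcm6 at 0.950 and 0.887 times, in the same order.

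With the 3 libraries left out, the members' median was little changed, but the only member called among the 16117 genes then tested was Mcm6, at 0.85 ± 0.25 (SE, adjusted p = 0.0463). The 3 HFD libraries lay above all 5 CHOW libraries for 16 of 40 members (40%), against 9.64% of all genes. Leaving out libraries can only keep or add such separation.

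The direction of the shift differed by role. The helicase and clamp genes went from a median of 0.30 to 0.42, with 6 of 7 larger, and all 4 nucleotide supply genes were larger (0.50 to 0.60). The checkpoint and kinase genes went from 1.06 to 0.67 and the centromere, kinesin and spindle genes from 0.80 to 0.62, each with 7 of 9 smaller, so that both came close to the nucleotide supply genes. The cyclins and their kinase went from 0.98 to 0.79, with 4 of 6 smaller. The median of the transcription factors went from 0.79 to 0.84, although 2 of the 3 became smaller and 1 larger. By member, Tk1 went from 1.48 to 1.57, Mki67 from 1.13 to 1.25 and E2f1 from 0.79 to 0.84, while Aurka went from 1.15 to 0.53, Ccnb2 from 1.09 to 0.67, Plk1 from 1.35 to 0.90 and Cdc20 from 0.60 to 0.21. The log2 fold changes of 9 members became smaller by more than 0.25, a limit chosen after the values were seen. They were Ccnb1, Ccnb2, Bub1, Plk1, Aurka, Cdc20, Cenpf, Kif20a and Foxm1. The part of germ cell RNA in the 20 week result of these 9 was not tested.

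**Figure D3:**
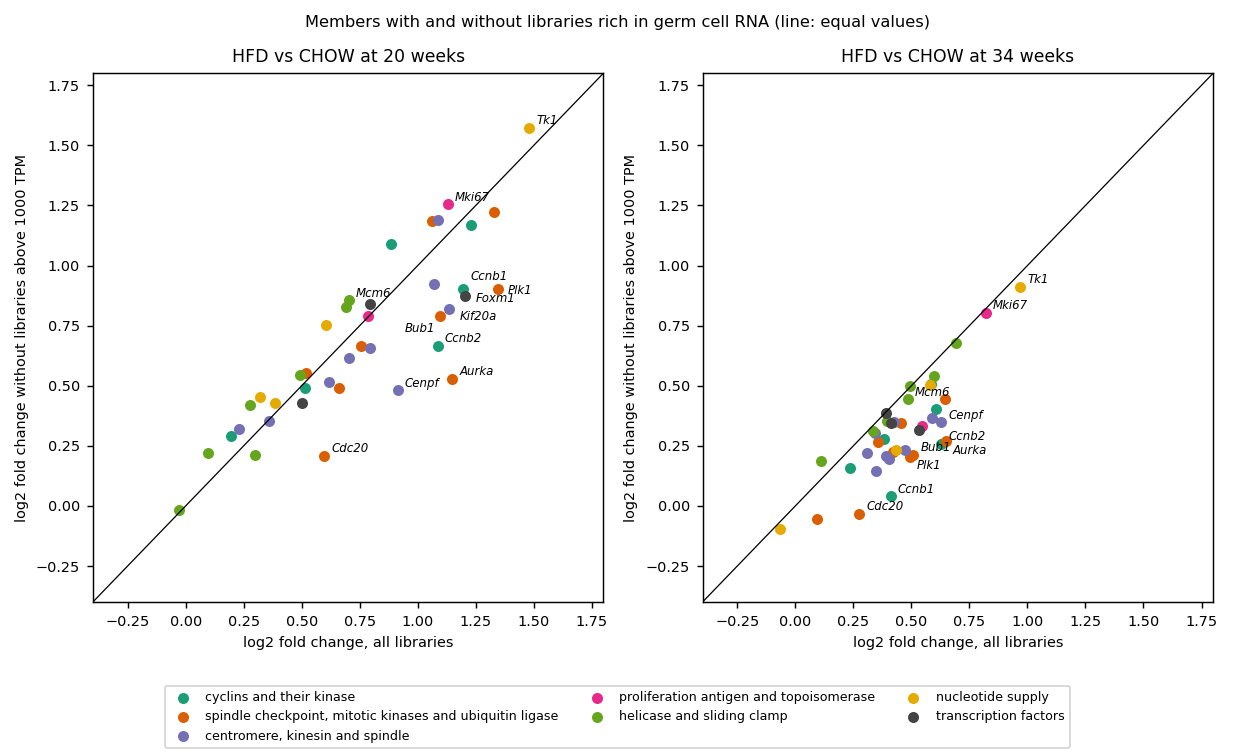
Log2 fold change (HFD against CHOW, log2(TPM + 1) scale) of the 40 members at 20 weeks and at 34 weeks, in all libraries (x axis) and without the libraries above 1000 TPM of summed Prm1, Prm2 and Tnp1 (y axis). Points under the diagonal became smaller, as Aurka did at 20 weeks (1.15 to 0.53), and points above it became larger, as Mki67 did at 20 weeks (1.13 to 1.25).

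Other cell types moved with diet at 20 weeks as well, in the comparison where 14.3% of all genes were called. The 5 markers of lipid-associated macrophages, the cells that gather around dying adipocytes, summed to 580 to 2330 TPM on CHOW and 3939 to 6261 TPM on HFD, with 5 of 5 called higher. General macrophage markers summed to 2961 to 6374 and 5145 to 7805 TPM. The 5 red cell genes were lower on HFD, 27334 to 130027 against 12622 to 30448 TPM, with 5 of 5 called. All 6 mesothelial markers were called lower (201 to 656 against 61.6 to 197 TPM). The adipocyte markers summed to 4449 to 7456 and 3072 to 5128 TPM. The adipose progenitor and fibroblast markers summed to 6154 to 8663 TPM on CHOW and 3823 to 6557 TPM on HFD. The part of these cell types in the members' levels was not tested beyond the fit with the adipocyte covariate.

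After 8 weeks of HFD, 34 of 40 members had a positive log2 fold change, but none passed the test. The members' median was 0.35, against -0.08 over all genes. By the adjusted p 0 members and 0.0238% of all genes were called. At an unadjusted p under 0.05 there were 3 of 40 members and 1630 of all 16808 genes tested. Cdk1 was at 2.75 to 18.8 TPM in the 4 CHOW libraries (mean 9.74 ± 7.66) and at 7.11 to 28.8 TPM on HFD (17.8 ± 9.29, SD), for a difference on the log2 scale of 0.96 ± 0.44 (SE, adjusted p = 0.496). Tk1 had 0.95 ± 0.43 (adjusted p = 0.496) and Cenpe 0.68 ± 0.30 (adjusted p = 0.467). The groups overlapped for all 40 members, whereas 2.11% of all genes separated them. The 4 CHOW libraries differed widely from each other: replicate 3 was highest for 33 members and replicate 2 lowest for 34. The helicase and clamp genes had a median of -0.02, with 3 of 7 positive, and all 18 genes of the checkpoint, kinase, centromere and spindle roles were positive.

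After 34 weeks, tested in its own table, 39 of 40 members were positive with a median of 0.44 against 0.10 over all genes, and again none passed. In the fit that held adipocyte RNA as a covariate, the members' median turned to -0.11, against 0.02 over all genes, and CHOW replicate 6, lowest for 36 members, had the highest adipocyte RNA of this time. By the adjusted p no member and 0.243% of the 13982 genes tested were called. An unadjusted p under 0.05, a looser limit, was found for 7 members. The share of all genes at that limit is not given here, so this count is not read as a result. The lowest p was that of Pcna (chr2:132249162-132253314). It was at 88.2 to 218 TPM on CHOW (median 191) and 227 to 294 TPM on HFD (median 249), the only member whose groups did not overlap at this time, where the groups did not overlap for 0.937% of all genes (log2 fold change 0.60 ± 0.19, SE, adjusted p = 0.235). The helicase subunit Mcm7 had 0.39 ± 0.16 (adjusted p = 0.313), and Mybl2 0.41 ± 0.17 (adjusted p = 0.334). The CHOW level of several members at this age was high and spread out, as for Tk1 at 1.498 to 25.5 TPM (median 15.02) against 16.4 to 44.04 TPM (median 24.4) on HFD.

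At 34 weeks the germ-cell-rich libraries differed from each other in the members. HFD replicate 1 was highest of its group for 37 members, and replicate 2, with slightly more germ cell RNA, was highest for 0 and lowest for 6. Without both, the members' median went from 0.44 to 0.31, and 38 of 40 log2 fold changes were smaller. They fell by more than 0.25 for 7 members, Ccnb1, Ccnb2, Bub1, Plk1, Aurka, Cdc20 and Cenpf. All 7 were among the 9 of the 20 week comparison (7 of 7 and 7 of 9), by the same limit chosen after the values were seen. The part of germ cell RNA in this overlap was not tested.

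**Figure D4:**
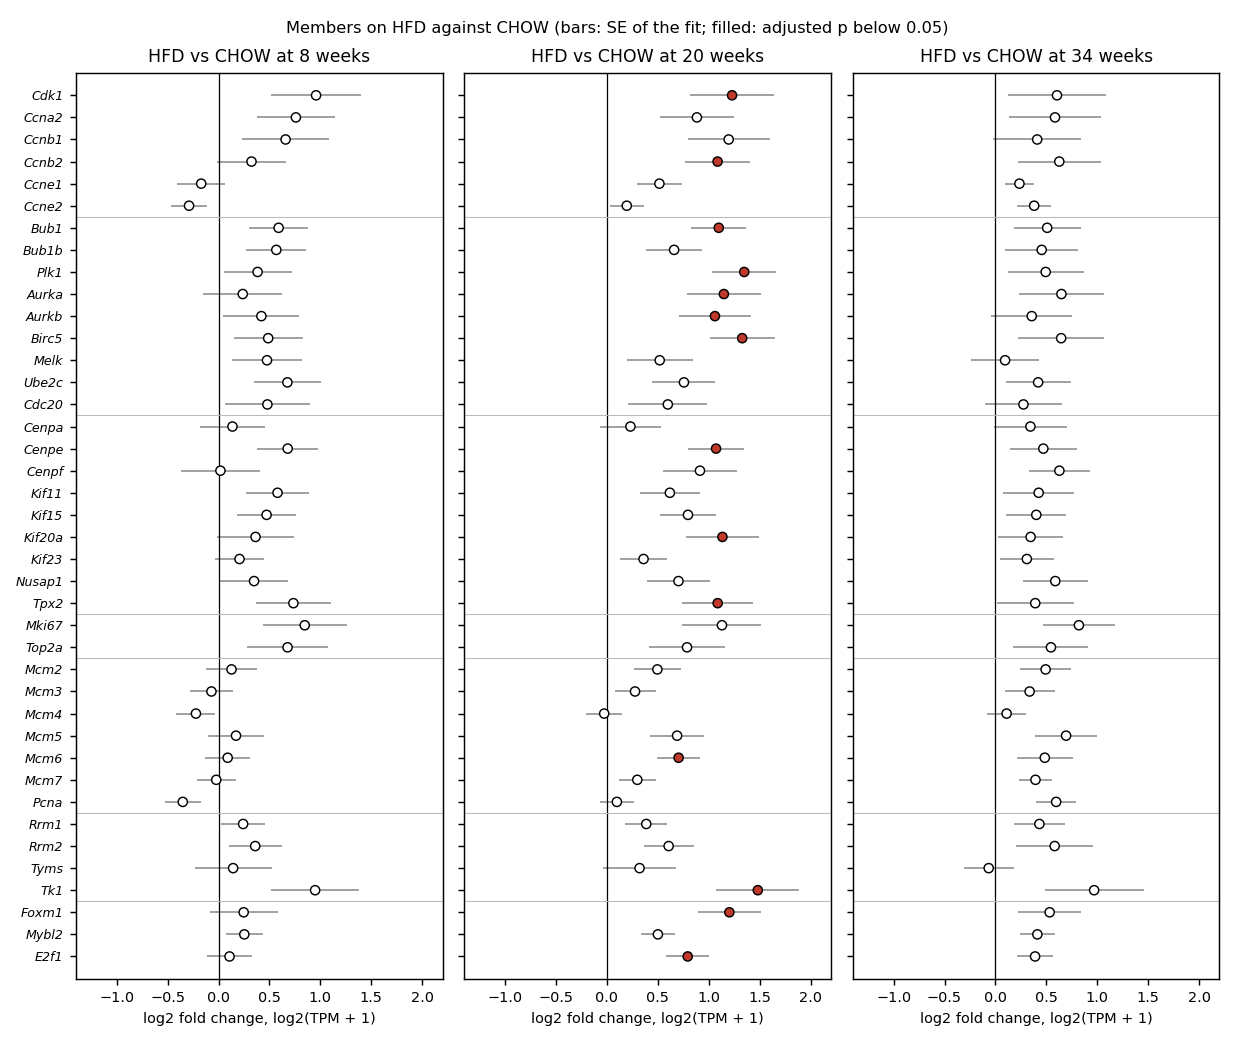
Log2 fold change of HFD against CHOW with its SE for the 40 members at 8, 20 and 34 weeks (log2(TPM + 1) scale), grouped by role. Filled points passed an adjusted p of 0.05, which 14 members did at 20 weeks and 0 at 8 and 34 weeks.

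Whether the effect of diet differed between times could be tested for 8 and 20 weeks, which share a table. The log2 fold change was larger at 20 weeks for all 40 members, by a median of 0.35 against 0.18 over all genes, and no member passed the test of that difference. By the adjusted p 0.297% of all genes were called. An unadjusted p under 0.05, a looser limit, was found for 4 members. This count stands without the share of all genes at that limit and is not read as a result. The differences were 0.68 ± 0.31 for E2f1 (SE, adjusted p = 0.347), 0.69 ± 0.32 for Ccne1 (adjusted p = 0.356) and 0.96 ± 0.46 for Plk1 (adjusted p = 0.36). So the calls at 20 weeks and their absence at 8 weeks are not shown to differ.

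From 8 to 20 weeks on HFD, 35 of 40 members were positive, with a median of 0.20 against 0.09 over all genes. By the adjusted p 0 passed, where 8.78% of all genes did, and 4 members had an unadjusted p under 0.05, a looser limit. The count at the looser limit is not read as a result, since the share of all genes there is not given. Foxm1 was at 2.04 to 10.3 TPM at 8 weeks (median 6.77) and 5.05 to 21.3 TPM at 20 weeks (median 13.3), for a difference on the log2 scale of 0.88 ± 0.30 (SE, adjusted p = 0.0653). Mki67 went from a median of 18.2 TPM (7.35 to 34.1) to 42.1 TPM (27.8 to 51.3), or 1.07 ± 0.37 (adjusted p = 0.0721). Plk1 had 0.75 ± 0.30 (adjusted p = 0.113). The groups overlapped for all 40 members, whereas 4.17% of all genes separated them.

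From 8 to 20 weeks on CHOW, 32 of 40 members were negative, with a median of -0.13 against -0.09 over all genes. By the adjusted p 0 passed, where 0.613% of all genes did, and 3 members had an unadjusted p under 0.05, a looser limit. The count at the looser limit is not read as a result, as the share of all genes there is not given. The S phase cyclin Ccne1 was at 5.04 to 8.19 TPM at 8 weeks and 1.73 to 4.58 TPM at 20 weeks, without overlap, as for 6.28% of all genes (-1.02 ± 0.24, SE, adjusted p = 0.057). The kinesin Kif23 had -0.58 ± 0.25 (adjusted p = 0.339) and E2f1 -0.50 ± 0.23 (adjusted p = 0.382). Mki67 had the opposite sign to most members, with means of 11.1 ± 7.15 TPM at 8 weeks and 19.1 ± 9.94 TPM at 20 weeks (SD, n = 4 and 5).

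A wider set of 125 other cell cycle genes in 5 lists was read in the same way at 20 weeks. Of these, 31 rose and 1, the G1 cyclin Ccnd2, fell (25.6% called, against 14.3% of all genes in either direction). In the kinetochore, spindle and cytokinesis list 18 of 46 rose (39.1%, median log2 fold change 0.70), and in the replication origin and fork list 8 of 36 (22.2%, median 0.29). Of the chromosome condensation and histone genes 0 of 11 were called (0.28, with 3 at an unadjusted p under 0.05 and 1 called under median-ratio scaling). In the list of G1 cyclins, their kinases and E2F factors 3 rose and 1 fell of 15 (26.7% called, median 0.07). Of the inhibitors and pocket proteins, which hold cells out of the cycle, 2 of 17 rose (11.8%, median 0.20), a share near that of all genes.

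Of the called genes with the largest changes, Kif2c, a kinesin that takes microtubules apart, was at 0.827 to 2.67 TPM on CHOW and 1.61 to 51.2 TPM on HFD (median 6.72), for a difference on the log2 scale of 1.86 ± 0.56 (SE, adjusted p = 0.0308). Its 3 highest values, 9.20, 16.1 and 51.2 TPM, were in the 3 germ-cell-rich libraries, and without them the change was 0.62 ± 0.40 (adjusted p = 0.418). E2f8, an E2F factor that represses, was at 0.664 to 5.74 TPM on CHOW and 6.81 to 11.5 TPM on HFD, with no overlap (1.75 ± 0.35, adjusted p = 0.00276), and without those libraries at 1.93 ± 0.45 (adjusted p = 0.015). Cdca3, a trigger of mitotic entry, was at 1.60 to 12.6 TPM and 15.2 to 54.5 TPM, also with no overlap (1.67 ± 0.46, adjusted p = 0.0213), but at 1.22 ± 0.54 (adjusted p = 0.207) without them. Without the germ-cell-rich libraries 2 of the 123 genes then tested were called, E2f8 and the replication factor Gins4, a smaller share than the 5.94% of all genes.

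In the other comparisons, 2 of the wider genes were called, both from 8 to 20 weeks on HFD, where 2 of 125 is a smaller share than the 8.78% of all genes. E2f8 rose by 1.26 ± 0.34 (SE, adjusted p = 0.0235), with group medians of 2.80 and 7.63 TPM, and was no longer called without the germ-cell-rich libraries (1.43 ± 0.43, adjusted p = 0.0729). Cdkn1a, which encodes the inhibitor p21, rose by 0.81 ± 0.16 (adjusted p = 0.00248), from 181 to 434 TPM (median 354) to 525 to 603 TPM (median 583). At 20 weeks Cdkn1a did not separate the diets, at 487 to 622 TPM on CHOW. In the comparisons with 0 called, an unadjusted p under 0.05 was found for 6 genes at 8 weeks, 23 at 34 weeks, 6 over time on CHOW and 11 for the difference of the diet effects. That limit is looser than the adjusted p, and at 8 weeks 1630 of all 16808 genes tested met it. For the other comparisons the share of all genes at that limit is not given. Their counts, also that of 34 weeks, are therefore not read as results.

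**Figure D5:**
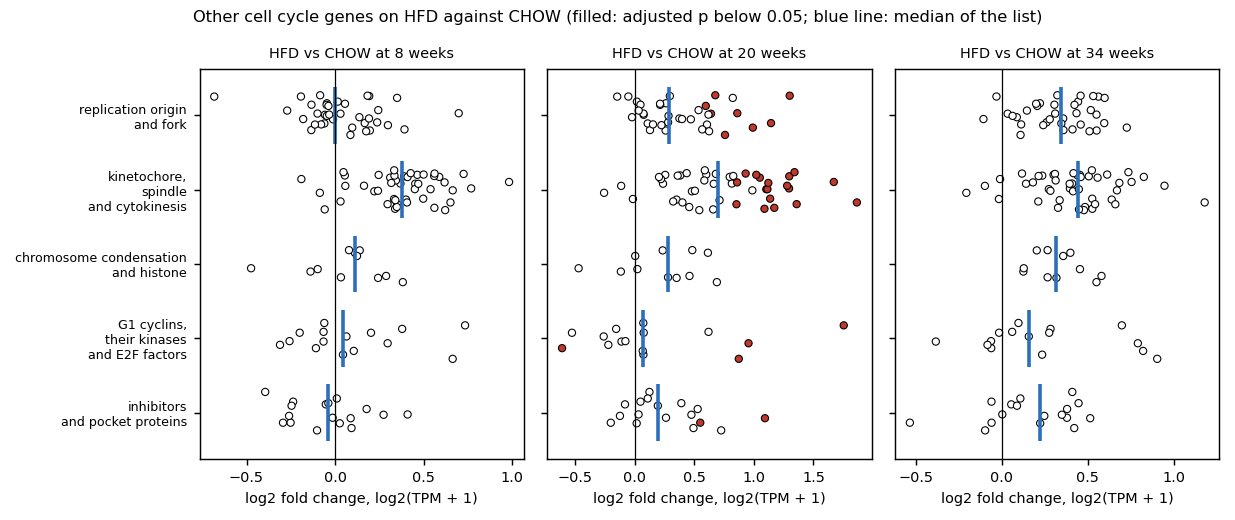
Log2 fold change of HFD against CHOW for the genes of 5 further cell cycle lists at 8, 20 and 34 weeks (log2(TPM + 1) scale). At 20 weeks the kinetochore, spindle and cytokinesis genes had the highest median (0.70) and the G1 cyclins, their kinases and E2F factors the lowest (0.07).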

How the data were processed

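RNA-seq libraries (poly(A), stranded, NextSeq 500) were made from SVF RNA after erythrocyte lysis. The authors trimmed reads with Trimmomatic, quantified gencode M10 protein coding and lncRNA transcripts with Salmon, summed them to genes and deposited TPM, in 1 table of 21 libraries (8 and 20 weeks) and another of 13 (34 weeks). No software version was given in the sources used here. TPM is a share of each library and keeps no read depth, so no counting interval can be given. The authors' counts, tested by them with DESeq2, and the adipocyte libraries were not used here. Groups and replicate numbers came from the sample titles.

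Identifiers were matched to gencode M21 (GRCm38) for 31791 of 32098 genes. The deposited TPM were transformed to log2(TPM + 1). Genes at 1 TPM or more in 4 libraries (8 and 20 weeks) or 6 libraries (34 weeks) were tested two-sided with limma 3.58.1 in R 4.3.3 (1 mean per group, eBayes with trend), with Benjamini-Hochberg adjustment over all genes tested and a threshold of 0.05. The 4 groups of 8 and 20 weeks shared 1 fit, and the tables were never tested against each other. The fit was tested on simulated data. Promoter windows were RefSeq's, searched by exact letters on both strands.

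The members, gene lists and marker lists were chosen with earlier results of these data known. Test statistics are named for the members called, or the 8 with the largest log2 fold change where more were called, for the 3 members of lowest p where none was, and for up to 3 called genes of the wider lists. Members given at the edge of the threshold, or in the fits without germ-cell-rich libraries, were picked after their values were seen. Alternatives were another pseudocount (0.1 TPM), no filter or a filter of 5 TPM, 3 scalings, sample quality weights, a replicate block, a fit of 2 groups, covariates for germ cell or adipocyte RNA, and leaving out each library or all germ-cell-rich ones.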

Additional observations from a re-analysis of the deposited data

Results flagged for a closer look

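The single libraries below lay far from the rest of their group, with a gap to the nearest library that was a large share of the group's range (Dixon's 95% critical value). Of 246 sets of values examined 15 were so marked, where chance alone gives about 1 in 20.

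In HFD 20 week replicate 5 the summed Prm1, Prm2 and Tnp1 level was 8747 TPM (nearest library 1974), Kif20a was high at 10.8 TPM (nearest 5.29), Mcm7 was high at 29.5 TPM (nearest 24.1) and Mcm6 was low at 18.9 TPM (nearest 29.3). In HFD 34 week replicate 1 Birc5 was at 47.8 TPM (nearest 27.96), Tpx2 at 15.9 TPM (nearest 9.38) and Mcm7 at 27.8 TPM (nearest 21.1). Mcm4 was at 21.2 TPM in HFD 34 week replicate 4 (nearest 14.9), and Cenpf at 2.60 TPM in CHOW 34 week replicate 1 (nearest 1.06). At 8 weeks Cenpf was at 6.91 TPM in HFD replicate 2 (nearest 2.60), Ccne2 at 1.55 TPM in HFD replicate 1 (nearest 0.989), and Pcna was low at 117 TPM in HFD replicate 3 (nearest 230). Tyms was at 28.3 TPM in CHOW 8 week replicate 3 (nearest 10.6). The germ cell sum was at 811 TPM in HFD 8 week replicate 4 (nearest 91.3) and at 141 TPM in CHOW 20 week replicate 1 (nearest 33.3), both under the 1000 TPM limit.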

How the results depend on the processing

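The count of 14 members called at 20 weeks was 13 with a pseudocount of 0.1 TPM, 8 without a filter, 18 with median-ratio scaling, 14 with quantile normalization, 17 after rescaling without blood, germ cell and gland genes, 21 in a fit of the 2 groups alone and 27 with sample quality weights. The share of all genes called moved as well, from 14.3% to 14.1%, 6.38%, 21.5%, 20.8%, 16.8%, 17% and 30.3% in the same order. With a filter of 5 TPM 14 of the 33 members then tested were called, and 16.6% of all genes. The members' count was 0 with germ cell RNA as a covariate, 0 with an adipocyte score as a covariate, 1 without the germ-cell-rich libraries, and 4 to 17 when each library was left out in turn. At 8 weeks 1 member was called with quality weights, where 1.24% of all genes were called. Over time on CHOW 1 was called with median-ratio scaling, 1 after rescaling and 2 with quality weights. The shares of all genes called were 2.48%, 1.64% and 9.87% in the same order. With each library left out 0 to 1 were called, against 0.144% to 1.11% of all genes. Over time on HFD 2 were called with median-ratio scaling, 1 with quantile normalization and 1 with quality weights. The shares of all genes called were 14.5%, 16.4% and 12.3% in the same order. With each library left out 0 to 2 were called, against 5.56% to 11% of all genes. At 34 weeks and for the difference of diet effects the count was 0 in all alternatives run. The cause of these changes was not tested. With the replicate number as a block 17 members were called at 20 weeks, and 21.4% of all genes. The numbers were not taken to pair the libraries, since no comparison had all same-numbered deviations correlated above 0.1. The correlations were -0.10 to 0.15 between the diets at 20 weeks and 0.05 to 0.40 between the times on HFD.

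The members' median log2 fold change stayed positive at 8 weeks (0.10 to 0.73), at 20 weeks (0.46 to 0.87) and for the difference of diet effects (0.16 to 0.60). It ranged from -0.11 to 0.60 at 34 weeks, from -0.31 to 0.30 over time on HFD and from -0.72 to 0.05 over time on CHOW, with the lowest value of each under the adipocyte covariate. Scaling moved the median of all genes by at most 0.20, for the difference of diet effects (quantile normalization), and under the 3 scalings the members' median stayed above that of all genes on HFD at all 3 times. Under the adipocyte covariate it was below that of all genes at 34 weeks (-0.11 against 0.02). With TPM alone, depth per library is unknown, and in so small a set of libraries a member that missed the threshold is not shown to be unchanged.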
